A study of Brachypodium distachyon with 6 samples.

Results

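A set of 105 abundant loci held nearly the same share of root messenger RNA under ammonium and under nitrate in Brachypodium distachyon Bd21, a model grass. The set was chosen by measured values, from 29627 features counted in whole roots. A locus was included when its identifier carried the prefix BRADI_, when its mean was at least 200 CPM (the count of the locus per 1000000 counts of its library) under each nitrogen source, and when the ammonium mean divided by the nitrate mean lay between 0.93 and 1.07. The abundance minimum alone was met by 615 of 29435 BRADI_ loci, and 105 of these 615 (17.1%) also met the ratio limits. The equality of the 2 means is therefore how the loci were found and not a result. The choice set no limit on how far a locus varied between libraries of the same treatment or on how its level moved with the replicate number, although both enter the means it used. It did not use where a locus lies in the genome.

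All 6 libraries came from roots of genotype Bd21 grown in hydroponic tanks of 4.5 L, and each library is a pool of 12 seedlings. Seedlings were 7 days old at transfer and then grew for 19 days at 2.5 mM nitrogen, given as 1.25 mM (NH4)2SO4 to 3 pools (ammonium replicates 1 to 3) and as 1.25 mM Ca(NO3)2 to 3 pools (nitrate replicates 1 to 3). The counter-ions sulfate and calcium thus differed together with the nitrogen form. Whether each pool had a tank of its own is not said in the labels, so p-values refer to the variation among these pools, part of which may be technical. Library totals ran from 22470936 to 29547877 counts.

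Roots take up nitrate through dedicated transporters and must reduce it to nitrite and then to ammonium before the nitrogen enters amino acids. Ammonium is taken up by other transporters and is assimilated directly by glutamine synthetase and glutamate synthase, and its uptake tends to acidify the root surroundings while nitrate uptake tends to raise the pH. Transcripts whose level does not depend on such a treatment are what quantitative PCR needs as internal references, and a good reference is also steady between replicates of the same treatment. The table pairs its identifiers with no gene names, and 0 of the 105 identifiers matched the RefSeq gene table of 31335 genes, so no function is given to any locus here and the tissue label could not be checked against marker genes. CPM is not corrected for transcript length, so an order of loci by CPM is an order of read counts and not of transcript copies.

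The 105 loci spanned a broad range of counts. Their mean over the 6 libraries ran from 203 to 2474 CPM with a median of 275 CPM (interquartile range 233 to 358). Of the 105, 57 lay under 300 CPM, 12 reached 500 CPM and 4 reached 1000 CPM. The other 510 abundant loci had a median of 356 CPM (interquartile range 271 to 535) and a highest value of 8021 CPM. Together the 105 loci held 3.81%, 3.75% and 3.89% of all counts in ammonium replicates 1 to 3 and 3.80%, 3.80% and 3.89% in nitrate replicates 1 to 3. The group means were 3.82% ± 0.069 and 3.83% ± 0.051 (SD, n = 3 each), and the libraries of the treatments overlapped. Near-equal group means of this sum follow from the ratio limits and are not a result. The 5 loci with the most counts made up 19.7% of this sum. In whole roots, a change in the number of cells of one type and a change in RNA per cell cannot be told apart, and an equal share of counts is not an equal amount of RNA per root.

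**Figure D1:**
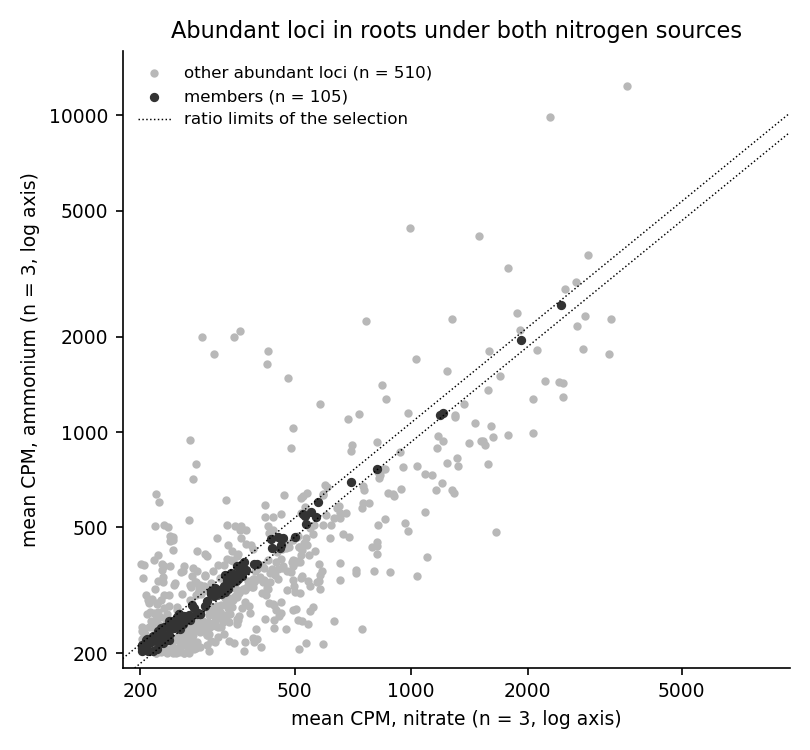
Mean CPM under nitrate (x axis) and under ammonium (y axis), both on log axes, for the 105 selected loci (dark) and the 510 other abundant loci (grey), each a mean of 3 libraries. The dark points follow the diagonal between the dotted ratio limits of 0.93 and 1.07 from 203 to 2474 CPM, by construction, and the grey points lie on both sides.

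The limits cut through a continuous range of ratios. Among the 615 abundant loci, 344 had a ratio under 0.93 and 166 a ratio over 1.07. Only 17 had a ratio of 0.5 or less and 22 a ratio of 2 or more. Just inside the lower limit was BRADI_4g01240v3 at 0.932, and just outside it BRADI_2g14120v3 at 0.929. Just inside the upper limit was BRADI_3g21690v3 at 1.070, and just outside it BRADI_3g16515v3 at 1.073. At the abundance limit, BRADI_2g25870v3 was included with a lower group mean of 201.3 CPM, and BRADI_3g56830v3 was left out at 199.7 CPM. Of the 105 ratios 52 were above 1 and 53 below, with a median of 0.999.

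The 3 loci with the most counts differed in how evenly their libraries were spread. BRADI_5g24690v3, rank 13 of all features by counts, stood at 2470, 2315 and 2758 CPM in ammonium replicates 1 to 3 and at 2545, 2192 and 2567 CPM in nitrate replicates 1 to 3. In both treatments its lowest library was replicate 2, and the treatments overlapped. BRADI_1g03720v3, rank 20, stood at 2006, 2076 and 1782 CPM under ammonium and at 1867, 1970 and 1942 CPM under nitrate. Its ammonium libraries included both the highest and the lowest of the 6 values. BRADI_2g62315v3, rank 46, stood at 1164, 1149 and 1145 CPM under ammonium and at 1266, 1209 and 1159 CPM under nitrate. Here the ammonium libraries were close together, with a coefficient of variation (CV, the SD divided by the mean) of 0.889% against 4.40% under nitrate (n = 3 each), and nitrate replicate 3 lay within the ammonium range.

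None of the 105 loci was called different between the nitrogen sources, which follows from the choice. The edgeR quasi-likelihood test with Benjamini-Hochberg adjustment over 23694 features called 41.4% of them at an adjusted p under 0.05. Among the 105 loci it called 0, and 0 had an unadjusted p under 0.05. DESeq2, limma and the edgeR fit blocked on replicate number each called 0 of the 105, also with 0 at an unadjusted p under 0.05. The smallest adjusted p was 0.28, for BRADI_1g07230v3. For 4 loci the ammonium and nitrate libraries did not overlap, against 54.6% of all tested features, and this low count too follows from the choice. These 4 were named after their values were seen. BRADI_3g03850v3 (373 to 384 CPM under ammonium, 355 to 372 CPM under nitrate) and BRADI_1g11520v3 (248 to 258 CPM and 239 to 242 CPM) had the higher values under ammonium. BRADI_1g07230v3 (262 to 275 CPM and 276 to 295 CPM) and BRADI_3g42710v3 (213 to 217 CPM and 225 to 230 CPM) had the higher values under nitrate.

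A missed threshold does not show that levels are alike. As a description of precision, the width of each 95% confidence interval was taken from a limma fit of log2 CPM on all features. The median half-width over the 105 loci was 0.20 on the log2 scale (interquartile range 0.18 to 0.24), against 0.21 (0.19 to 0.26) for the other 510 abundant loci. The choice placed the centre of each interval near 0, and the counts that follow depend on these centres as well as on the widths. They bound no difference and are no support for alikeness, and intervals after such a choice need not keep their 95% coverage. All 105 intervals lay within 1.5-fold either way and 58 of 105 within 1.2-fold, while 0 lay within 1.1-fold. The count within 1.2-fold fell to 14 without ammonium replicate 1, to 10 without ammonium replicate 2, to 29 without nitrate replicate 1 and to 36 without nitrate replicate 3. The test behind these intervals shares its estimate of spread across features, so even the steadiest locus had a half-width of at least 0.15. The 1.1-fold limit is 0.138 on the log2 scale, which is under every half-width, so no locus could have fallen within it.

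**Figure D2:**
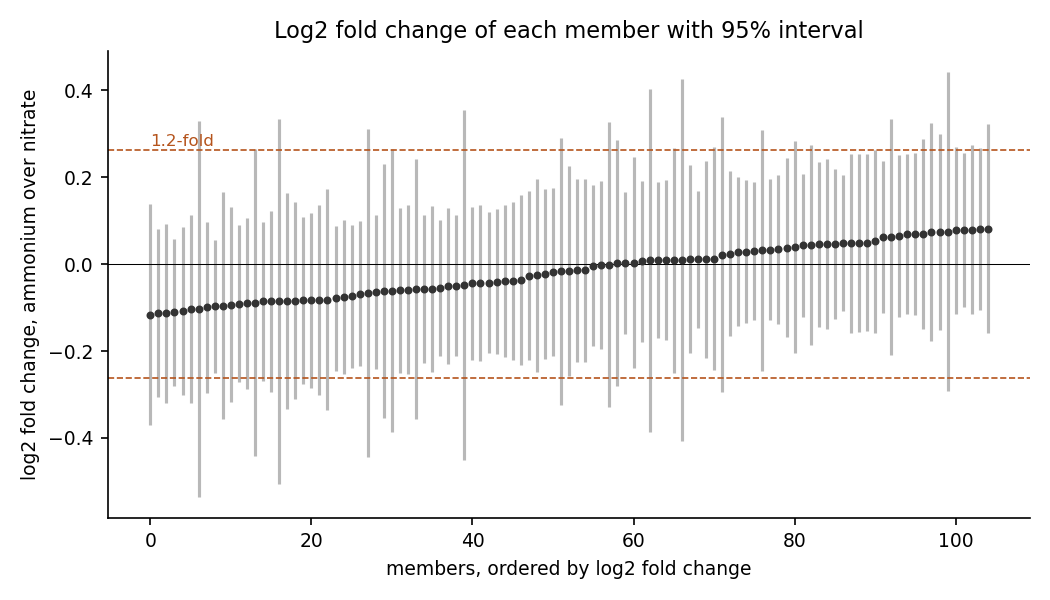
Log2 fold change of ammonium over nitrate (y axis) for each of the 105 loci, ordered by its value (x axis), as points with 95% confidence intervals from limma (vertical bars, 3 libraries per treatment). All intervals hold 0, their centres lie near 0 by construction, and 58 of them lie between the dashed lines at 1.2-fold.

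Near-equal means often came from libraries that were less equal one by one. This follows in part from the choice, which limited the ratio of means and not the ratios of single libraries. The ratio of ammonium to nitrate was computed for each replicate number (ammonium replicate 1 over nitrate replicate 1, and so on). All 3 ratios lay between 0.93 and 1.07 for 21 of the 105 loci, 2 of them for 48 loci, 1 for 30 loci and none for 6 loci. The ratio was inside these limits at 67 loci for replicate number 1, at 71 for number 2 and at 51 for number 3. Single ratios ran from 0.685 (BRADI_1g30550v3) to 1.51 (BRADI_2g45130v3), both chosen as the extremes after their values were seen. All 3 ratios lay on the same side of 1 for 21 of the 105 loci.

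The spread between libraries of the same treatment was small but larger than counting error. The median CV of CPM over the 105 loci was 4.33% under ammonium (interquartile range 2.47 to 7.84) and 7.00% under nitrate (4.18 to 10.8), n = 3 libraries each. Every library held at least 4017 counts of each locus, and counting error alone gives a median CV of 1.15% under ammonium and 1.17% under nitrate. The measured CV was above the counting value for 102 of 105 loci in each treatment. For the other 510 abundant loci the median CV was 5.37% under ammonium and 7.51% under nitrate. The near-equal loci were thus only slightly below the other abundant loci in this respect, and the difference was not tested, since loci are not replicates. The CV was higher under ammonium than under nitrate for 40 of the 105 loci and for 207 of the 510. The ammonium median was 3.93%, 4.66% and 2.51% without ammonium replicate 1, 2 or 3. Without nitrate replicate 1, 2 or 3 the nitrate median was 5.20%, 6.21% and 5.19%. Each of these values rests on fewer libraries than the main medians. A CV under 10% in both treatments was found for 68 of the 105 loci (64.8%) and for 273 of the 510 (53.5%), and one under 5% for 20 (19.0%) and 68 (13.3%). At a limit of 20% the order was the other way, with 94 of the 105 (89.5%) and 463 of the 510 (90.8%).

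**Figure D3:**
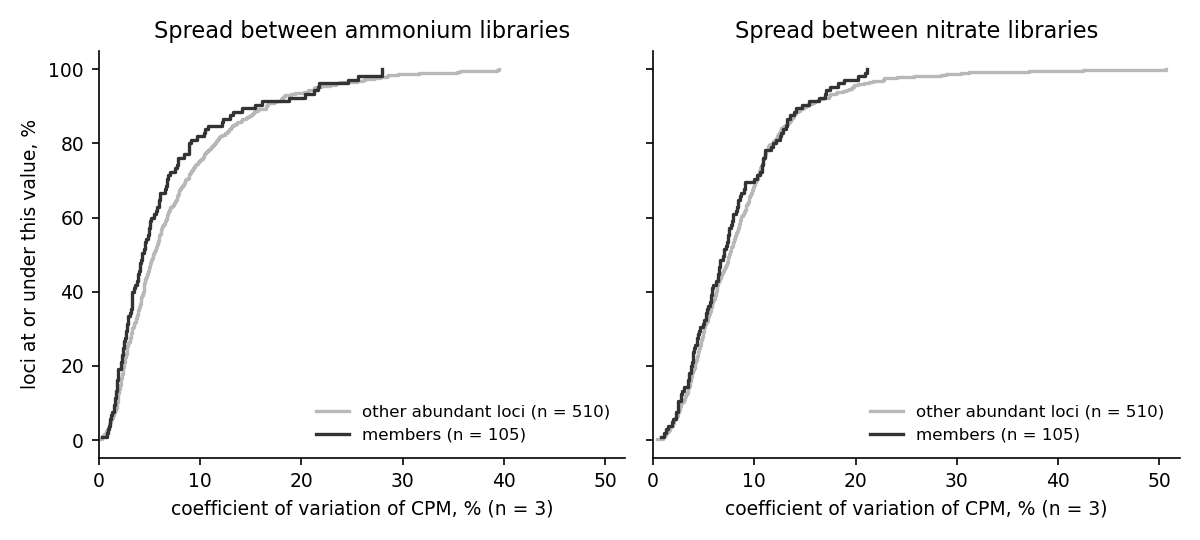
Cumulative share of loci (y axis, percent) at or under each coefficient of variation of CPM between the 3 libraries of a treatment (x axis, percent), for the 105 selected loci (dark) and the 510 other abundant loci (grey). Under ammonium the dark curve lies to the left over most of the range (medians 4.33% and 5.37%), and under nitrate the curves nearly coincide (7.00% and 7.51%).

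Steadiness over all 6 libraries, the property asked of a reference transcript, differed more than 10-fold among the 105 loci. The SD of log2 CPM over the 6 libraries had a median of 0.087 and ran from 0.025 to 0.28. The highest library exceeded the lowest by less than 1.2 times at 62 loci and by more than 1.5 times at 8. All of the 20 steadiest of the 615 abundant loci, and 42 of the 50 steadiest, were among the 105, which the ratio limits favour. The other 510 abundant loci had a median SD of 0.22, and 10 of them lay under the median of the 105. This SD contains the difference between the treatments that the choice kept small, so the comparison with the 510 is a description only.

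The 3 steadiest loci were picked for the smallest SD of log2 CPM over these same 6 libraries, so their even levels follow from that pick. BRADI_2g20370v3 stood at 213, 221 and 217 CPM in ammonium replicates 1 to 3 and at 215, 214 and 209.8 CPM in nitrate replicates 1 to 3, so its highest library was 1.05 times its lowest. BRADI_1g68290v3 stood at 297, 291 and 288 CPM under ammonium and at 297, 304 and 293 CPM under nitrate. BRADI_1g53800v3 stood at 364, 351 and 356 CPM under ammonium and at 345, 352 and 341 CPM under nitrate. The libraries of the treatments overlapped at all 3 loci, and the SD of log2 CPM was 0.025, 0.027 and 0.032. Their 95% intervals for ammonium over nitrate were 0.904 to 1.12, 0.867 to 1.09 and 0.91 to 1.14 as fold values.

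At the 3 least steady loci the same replicate number stood apart in both treatments. BRADI_3g40890v3 stood at 181, 178 and 283 CPM in ammonium replicates 1 to 3 and at 185, 189 and 248 CPM in nitrate replicates 1 to 3, so both libraries numbered 3 were high. BRADI_4g29770v3 stood at 410.2, 376 and 244 CPM under ammonium and at 386, 379 and 308 CPM under nitrate, so both libraries numbered 3 were low. BRADI_2g38247v3 stood at 288, 441 and 420.4 CPM under ammonium and at 315, 459.9 and 426 CPM under nitrate, so both libraries numbered 1 were low. Their ratios of means were 1.03, 0.96 and 0.957, while the SD of log2 CPM was 0.28 at each. Their 95% intervals for ammonium over nitrate, as fold values, were 0.755 to 1.34, 0.69 to 1.26 and 0.705 to 1.26. The ratios near 1 follow from the ratio limits, and the large SDs from the pick of the least steady loci.

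**Figure D4:**
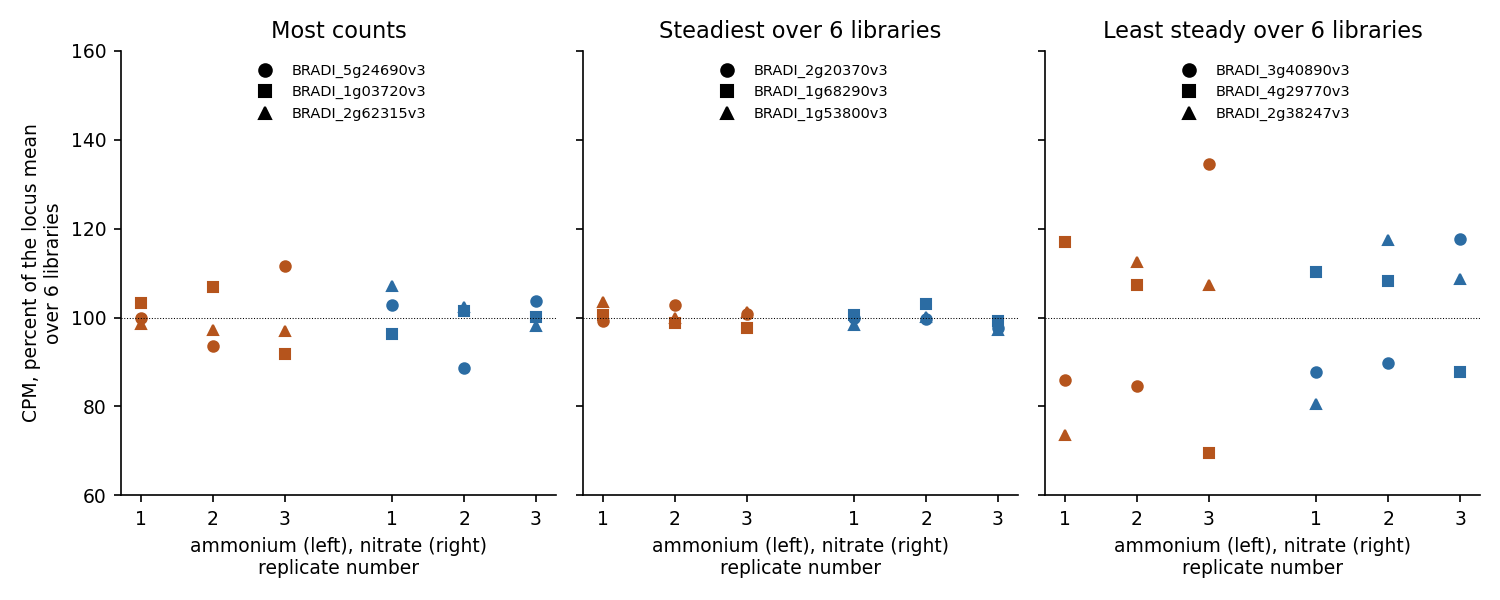
CPM of 9 of the 105 loci in each library as a percent of the locus mean over all 6 libraries (y axis), by replicate number (x axis) under ammonium (orange) and nitrate (blue), for the loci with the most counts, the smallest and the largest SD of log2 CPM. The steadiest loci stay near 100% in every library, as they were picked to do. At the least steady loci the same number is high or low under both treatments.

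The 8 loci whose highest library exceeded the lowest by more than 1.5 times include these 3. The same number held the highest library of both treatments at 7 of the 8, which is 4 of the 5 further loci, and the same number held the lowest at 4 of the 8. Number 3 was the highest in both treatments at 4 of these 8 loci and the lowest in both at 2. The exception was BRADI_2g45130v3, with 249, 221 and 286 CPM under ammonium and 290.2, 237 and 190.1 CPM under nitrate. The ratio limits bear on this count, because a locus with 1 outlying library in 1 treatment alone tends to leave the band, while outlying libraries in both treatments balance. They do not use which number stands apart.

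Over all 105 loci, the same number held the highest library of both treatments at 47 loci (44.8%) and the lowest at 36 (34.3%). The same shares were 41.6% and 37.5% for the other 510 abundant loci, and 38.8% and 37.6% over the tested features with a count in every library. Number 1 was the highest of both treatments at 9.52% of the 105 loci, 8.43% of the 510 and 9.72% of those tested features. For number 2 the shares were 10.5%, 19.6% and 12.3%, and for number 3 they were 24.8%, 13.5% and 16.8%. The deviations of log2 CPM from the treatment mean were compared between same-numbered libraries across loci, which are not independent replicates and share their libraries and depth. Pearson's r over the 105 loci was 0.323 for number 1, 0.448 for number 2 and 0.352 for number 3. It was 0.203, 0.484 and 0.224 over the 510 other loci. Between different numbers it ran from -0.382 to 0.039 over the 105 loci, and such values are pushed down because the 3 deviations of a treatment sum to 0.

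**Figure D5:**
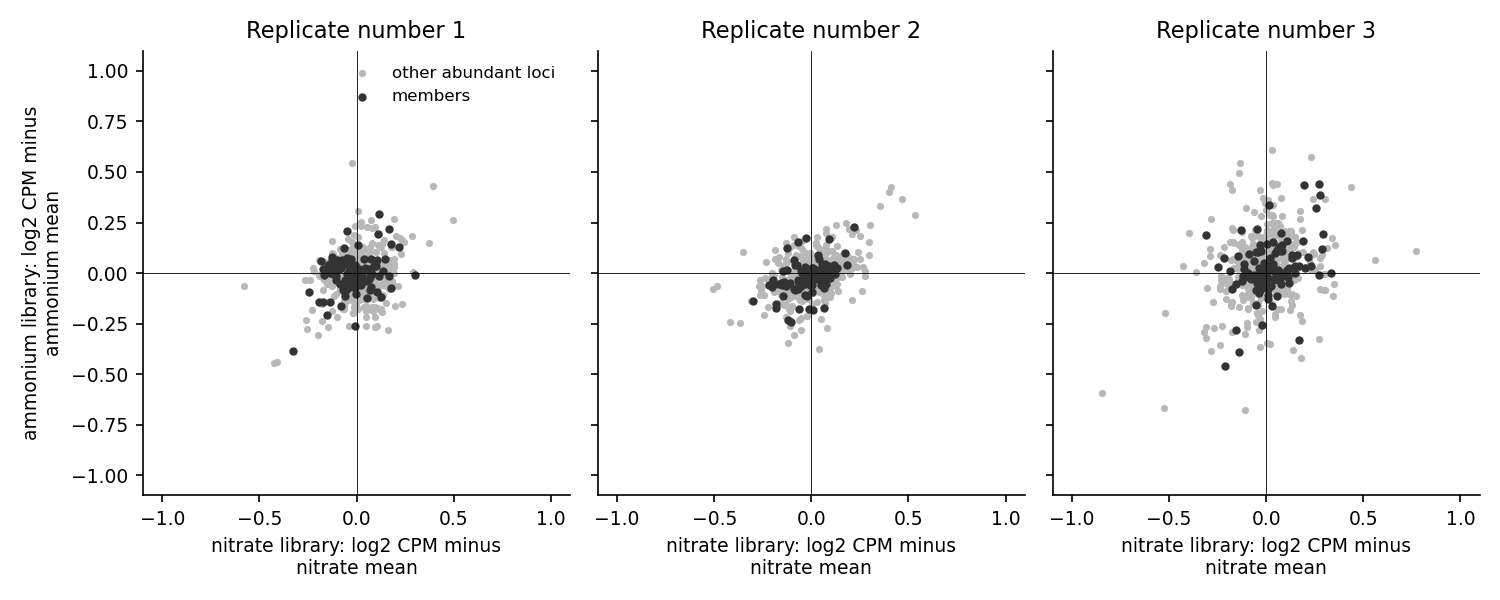
Deviation of log2 CPM from the treatment mean in the nitrate library (x axis) and the ammonium library (y axis) of the same replicate number, for the 105 selected loci (dark) and the 510 other abundant loci (grey). The dark points lean to the rising diagonal for each number (r = 0.323, 0.448 and 0.352), and those farthest from the origin are found for numbers 1 and 3.

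Differences between replicate numbers were tested feature by feature, in an edgeR quasi-likelihood fit with treatment and number as terms, a test added after these values were seen. Over all 23694 features 1.02% were called at a Benjamini-Hochberg adjusted p under 0.05. Of the 105 loci 0 were called, and 11 (10.5%) had an unadjusted p under 0.05, near the 9.68% found over all tested features. The smallest edgeR adjusted p was 0.092, for BRADI_2g38247v3. The likelihood ratio test of DESeq2 called 5 of the 105 loci (4.76%) and 18 of the 510 other abundant loci (3.53%). It called 1.65% of all 29627 features, a base that holds low-count ones. By default DESeq2 gives no adjusted p to features under a count limit that it sets itself, so some of these may not have been open to a call. The 5 called among the 105 were the 3 least steady loci, BRADI_3g39620v3 and BRADI_1g30130v3, with DESeq2 adjusted p-values from 0.00094 to 0.031. The edgeR adjusted p of the same 5 ran from 0.092 to 0.22. Without its filter on low counts, edgeR called 1 of the 105, BRADI_2g38247v3 (adjusted p = 0.045). That fit and the DESeq2 test both started from the table of 29627 features without the edgeR filter. Calls by replicate number at these loci thus varied with the filter as well as with the tool. The shares called over all features have unlike bases, 23694 for edgeR with its filter and 29627 for DESeq2. What the number stands for is not given in the labels, so it cannot be named as a tank, a harvest or a sequencing batch.

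BRADI_3g39620v3 and BRADI_1g30130v3 had both libraries numbered 3 above all others. BRADI_3g39620v3 stood at 413, 386 and 596 CPM in ammonium replicates 1 to 3 and at 398, 417 and 544 CPM in nitrate replicates 1 to 3. BRADI_1g30130v3 stood at 457, 446 and 632 CPM under ammonium and at 466, 508 and 635 CPM under nitrate. The mean of the libraries numbered 3 was 1.41 and 1.35 times the mean of the others at these loci, while the ammonium and nitrate means differed by less than 5%. The small difference between treatments follows from the ratio limits, and these loci were named for their calls by number. The values are thus no comparison of replicate number with nitrogen source.

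The 105 loci came from all 5 chromosomes, taken here as the digit after the prefix, as loci of this species are named. Chromosomes 1 to 5 held 29, 29, 20, 19 and 8 of them. The other 510 abundant loci numbered 194, 103, 119, 62 and 32 on the same chromosomes. The near-equal loci thus made up 13.0% of the abundant loci of chromosome 1 and 14.4% of those of chromosome 3, but 22.0% and 23.5% of those of chromosomes 2 and 4. The difference in shares was not tested, since neighbouring loci are not independent.

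In the order of locus numbers, 1 pair of the 105 loci was directly adjacent and 6 pairs lay at most 10 places apart. Among all 615 abundant loci there were 20 and 139 such pairs. The number of pairs falls faster than the number of loci in a smaller set, so these counts do not compare how scattered the sets are. The adjacent pair was BRADI_4g19641v3 and BRADI_4g19650v3. BRADI_4g19641v3 stood at 425, 413 and 453 CPM in ammonium replicates 1 to 3 and at 511, 470.1 and 392 CPM in nitrate replicates 1 to 3. BRADI_4g19650v3 stood at 237, 247 and 244 CPM under ammonium and at 226, 235 and 245 CPM under nitrate. Nitrate replicate 3 was the lowest library of the one and the highest nitrate library of the other. BRADI_3g39620v3, described above for its libraries numbered 3, lay 3 places from BRADI_3g39590v3, which stood at 1066, 1043 and 1293 CPM under ammonium and at 1141, 1167 and 1248 CPM under nitrate. Replicate 3 was the highest library of both treatments at each of these 2 loci. How reads that fit several loci were counted is not stated, so reads in common between alike neighbours may touch these values, which was not tested.

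Membership moved with the libraries used and with the scaling. Leaving out 1 library in turn gave 99 to 117 loci by the same rule, of which 82 to 87 were among the 105. Of the 105, 40 met the rule in all 6 of these subsets, and each met it in at least 2. Group medians in place of means gave 106 loci, with 77 of the 105 among them. TMM scaling gave 105 loci, with 98 of the 105 among them, and DESeq2 size factors gave 106, with 102 of the 105 among them. Leaving the 10 most abundant features of each library out of its total gave 132 loci, with 92 of the 105 among them.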

How the data were processed

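Messenger RNA of 6 root libraries (3 ammonium, 3 nitrate) was measured by RNA sequencing after poly-T selection, per the labels' protocols. The authors deposited a single table with the raw count of each feature in each library. HISAT2 and HTSeq were used, per the submitters' processing notes; their versions, the build, the annotation and how reads were assigned (strand, multiple hits) are not stated in the sources at hand. The members and lists were chosen with earlier results of these data known. Member CPM values use column totals. Fits used R 4.3.3 on all features: edgeR 4.0.16 (filterByExpr with minimum count 10 and minimum total 15, TMM, quasi-likelihood test), which left 23694 features, limma 3.58.1 with trend on log2 CPM (prior count 2) for 95% intervals, and DESeq2 1.42.0 as an alternative. Fits were tested on simulated data. Benjamini-Hochberg adjusted p-values under 0.05 were called.

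Same-numbered libraries of both treatments deviated together over the tested features (r = 0.122, 0.185 and 0.103 for numbers 1 to 3). They were therefore compared with each other, as in the ratios by replicate number. A pairing by number comes from the data, and the labels do not state it. The main fits by nitrogen source and the intervals had treatment as their only term, and the replicate block was an alternative. Libraries of the same treatment differed by more than sampling noise (chi-square over degrees of freedom 6.88 to 28.7), so none was treated as a duplicate. Counting errors cover counting only, since reads carried no molecular identifiers. Named loci are the 3 members with the most counts, the 3 with the smallest and the 3 with the largest SD of log2 CPM, and the loci nearest to each limit. The lists of gene functions and markers planned for named genes were not used, because 0 identifiers matched a name.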

Additional observations from a re-analysis of the deposited data

How the results depend on the processing

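The member count of 105 stayed within 1.5 times under other scalings, summaries and a band within 5% of 1 (79). It moved, by construction, to 159 with a band within 10% of 1, to 380 with a minimum of 100 CPM and to 12 with a minimum of 500 CPM. Leaving out 1 library gave 99 to 117. The features called by nitrogen source (9800) numbered 9273 to 10526 under other scalings, filters and tools, the last with the replicate block, and 7103 to 9898 without 1 library. In all of these fits 0 of the 105 loci were called. The features called by replicate number rose from 242 to 414 with no filter on low counts, which then called 1 of the 105 (BRADI_2g38247v3, edgeR adjusted p = 0.045), and to 490 with DESeq2; the cause was not tested. Intervals within 1.2-fold numbered 58, against 59 with the replicate block, 58 with prior counts of 0.5 or 5, and 10 to 53 without 1 library, where fewer samples enter. The block changed no call among the 105 loci. The median CV was 2.51% to 4.66% under ammonium and 5.19% to 6.21% under nitrate without 1 library. The summed share was 3.78% to 3.85% under ammonium and 3.80% to 3.84% under nitrate without 1 library. It was 4.02% and 3.95% when the 10 most abundant features left the total, by construction. Of 105 recomputed ratios of the 15 named loci, which include those just outside the limits, 98 moved by less than the SD between same-numbered ratios. The 7 that moved more belonged to BRADI_2g38247v3 and BRADI_3g40890v3, both among the least steady loci. These counts do not show that the ratios were stable, because the SD is wide wherever single ratios scatter. BRADI_4g29770v3 (SD 0.221 on the log2 scale) was not counted as moved. Its ratio was 0.866 without ammonium replicate 1 and 1.099 without ammonium replicate 3, both outside the ratio limits. BRADI_2g38247v3, counted as moved, had an SD of 0.0567. All recomputed ratios lay between 0.865 and 1.14. With a median counting CV of 1.15% and 1.17%, depth limits these loci less than the spread between libraries, part of which may be technical.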
